A study of Mus musculus with 16 samples.

Results

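UDP-glucuronosyltransferases (Ugt enzymes) of mouse liver were followed across 4 groups of mice as a list of 10 genes, Ugt1a1, Ugt1a6a, Ugt2a3, Ugt2b1, Ugt2b5, Ugt2b34, Ugt2b35, Ugt2b36, Ugt2b37 and Ugt2b38. Members were found on the array by the RefSeq accession of each probe. Of the 10 genes, 9 had a probe, 1 each, among 41174 probes for 19102 named genes, and no probe carried an accession of Ugt1a6a. All 9 member probes were well above background on all 16 arrays and were tested with 24455 probes (13311 genes) in all. The gene table held 22 Ugt genes, and 6 of them outside the list had 11 probes, of which 8 were tested.

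Ugt enzymes sit in the membrane of the endoplasmic reticulum and join glucuronic acid from UDP-glucuronic acid to lipid-soluble compounds, which then leave the cell in bile or blood. Hepatocytes are a main site of this conjugation. The Ugt1a genes each have a first exon and promoter of their own and share the 3' exons, whereas the Ugt2b genes are separate genes side by side in a cluster. Ugt1a1 conjugates bilirubin, and Ugt2b enzymes act on steroids, bile acids and many drugs. Several liver nuclear receptors, among them CAR (constitutive androstane receptor, the mediator of the phenobarbital response), are known to regulate genes of the family.

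Livers came from male mice of 57 weeks, all of which had been given the carcinogen N-diethylnitrosamine (DEN, 90 mg/kg) when 5 weeks old. Wild-type (WT) C57BL/6J mice or mice with a null allele of Gadd45b (KO) either had no further treatment (WT DEN, KO DEN) or had phenobarbital (PB) in the drinking water, 0.5 g/l, starting at 7 weeks (WT DEN + PB, KO DEN + PB). There were 4 mice and 4 arrays of 1 colour in each group, from liver outside tumours, and DEN was given to the controls too, so no group shows untreated liver. The KO stock name holds another strain besides C57BL/6, and effects of genotype and of strain background cannot be told apart. Both Gadd45b probes passed the background test on 4 of 4 arrays in each WT group and on 0 of 4 in each KO group. The 75th percentile of the signal ran from 137 to 294 across arrays, 58.3% to 67.7% of spots were well above background, and precision is limited by having 4 arrays in a group. The arrays lay on 4 slides, and PB could be compared within 3 of them in each genotype, from 2 or 3 arrays to a slide. WT DEN + PB 3 and KO DEN + PB 1 lay on slides without a DEN array of their genotype, so they entered no such comparison. Levels are the log2 processed signal minus the array's 75th percentile, given as mean ± SD (n = 4), and differences are log2 changes ± the standard error (SE) of the limma fit. Calls needed an adjusted p under 0.05 together with a change of at least 1.5-fold. An array probe has its own brightness, so levels are compared between groups of arrays and never between genes.

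The array files held no probe sequences, so whether the probes of Ugt1a1, Ugt1a6b and Ugt1a9 lie in a first exon or in the shared 3' exons cannot be told, and a reading of any of them may include other Ugt1a transcripts. Promoter windows of all 10 genes were held in RefSeq tables of build GRCm38.p6, where Ugt1a1 and Ugt1a6a lie on chromosome 1 and the other 8 on chromosome 5. The 250 bases before the start are printed for 4 genes of the cluster, because Ugt2b35 and Ugt2b34 were the members with the clearest PB response, and Ugt2b36 and Ugt2b37 the pair whose levels moved most alike. Capitals mark the nuclear receptor motifs AGGTCA and AGTTCA on either strand.
Ugt2b35 (chr5:87000610-87000859, plus strand): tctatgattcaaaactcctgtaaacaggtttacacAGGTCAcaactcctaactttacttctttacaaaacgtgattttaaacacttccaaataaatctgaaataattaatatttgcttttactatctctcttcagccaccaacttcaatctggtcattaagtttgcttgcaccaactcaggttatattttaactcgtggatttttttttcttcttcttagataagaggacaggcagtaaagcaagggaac
Ugt2b34 (chr5:86906938-86907187, minus strand): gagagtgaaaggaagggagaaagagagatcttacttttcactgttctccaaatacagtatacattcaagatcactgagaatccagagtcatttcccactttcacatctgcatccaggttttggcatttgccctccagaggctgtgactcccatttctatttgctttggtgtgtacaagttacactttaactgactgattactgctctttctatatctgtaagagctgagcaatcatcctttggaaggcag
Ugt2b36 (chr5:87092556-87092805, minus strand): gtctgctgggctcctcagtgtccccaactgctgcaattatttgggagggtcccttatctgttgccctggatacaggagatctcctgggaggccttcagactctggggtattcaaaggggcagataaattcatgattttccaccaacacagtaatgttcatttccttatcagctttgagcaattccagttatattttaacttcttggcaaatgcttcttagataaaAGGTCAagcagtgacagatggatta
Ugt2b37 (chr5:87254789-87255038, minus strand): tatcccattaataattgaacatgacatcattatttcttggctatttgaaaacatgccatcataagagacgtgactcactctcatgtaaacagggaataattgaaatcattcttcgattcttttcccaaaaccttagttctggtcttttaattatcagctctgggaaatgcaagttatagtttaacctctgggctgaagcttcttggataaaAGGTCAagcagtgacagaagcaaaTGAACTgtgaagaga

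AGGTCA was found in the 300-base windows (250 before the start and 50 after it) of 5 of the 10 members, Ugt2b5, Ugt2b35, Ugt2b36, Ugt2b37 and Ugt2b38, against 16.3% of 32851 promoters. In Ugt2b5, Ugt2b36, Ugt2b37 and Ugt2b38 it began between positions -39 and -22 from the start, and in Ugt2b35 at -215. The windows of Ugt2b5, Ugt2b36, Ugt2b37 and Ugt2b38 held the motif within the same stretch of bases, gataaaAGGTCAagcagtgaca. Matches in these genes are therefore not independent of each other, and the count of members overstates the number of separate occurrences. AGTTCA was found in 3 of 10 windows (Ugt1a1, Ugt2b1 and Ugt2b37; 14% of all promoters), GTTAAT, a part of the HNF1 motif, in 3 of 10 (Ugt1a1, Ugt1a6a and Ugt2a3; 7.1%), and GCGTG, the core of the motif of the aryl hydrocarbon receptor (AHR), in 0 of 10 (32.4%). The window of Ugt2b34 held none of these letters. The motifs were searched on both strands, no match in a member overlapped another, and a match is a description of the window only. The longest run of bases shared by the 250-base windows of a pair of members was 82, in Ugt2b37 and Ugt2b38, and 6 of 45 pairs shared a run of 20 or more, all of them among Ugt2b5, Ugt2b36, Ugt2b37 and Ugt2b38. Ugt2b34 and Ugt2b35 shared at most 10 bases with each other, and the median over the 45 pairs was 8.

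With PB, Ugt2b35 rose in both genotypes, and it was the only member called in either. Its level in WT DEN was 4.42, 4.47, 4.52 and 4.51 on the 4 arrays, and in WT DEN + PB 5.27, 5.39, 5.62 and 5.23. The KO DEN arrays gave 4.69, 4.03, 4.62 and 4.36, and those of KO DEN + PB 5.46, 5.08, 5.19 and 5.27. In each genotype every array with PB lay above every array without it. The change was 0.90 ± 0.16 in WT (1.86-fold, limma, adjusted p = 0.00796) and 0.82 ± 0.16 in KO (1.77-fold, limma, adjusted p = 0.0105). The two-sided exact permutation test gave p = 0.0286 in each genotype, the smallest that 70 assignments of 4 against 4 arrays allow. With slide as a block the changes were 0.88 and 0.84 (limma, adjusted p = 0.0472 and 0.0317), and within slides Ugt2b35 was higher with PB on 3 of 3 slides in WT (0.74 to 0.97) and on 3 of 3 in KO (0.39 to 1.24). The WT DEN arrays were close together (SD 0.05), and the lowest level of all was that of KO DEN 2. Without that array the change in KO was 0.69 ± 0.14 (limma, adjusted p = 0.0283). The calls did not hold with normexp background correction (0.84 and 0.81, limma, adjusted p = 1 and 0.606) or without scaling (1.00 and 0.53, adjusted p = 0.434 and 0.467), and the KO call did not hold in a fit of the KO arrays alone (adjusted p = 0.0738).

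**Figure D1:**
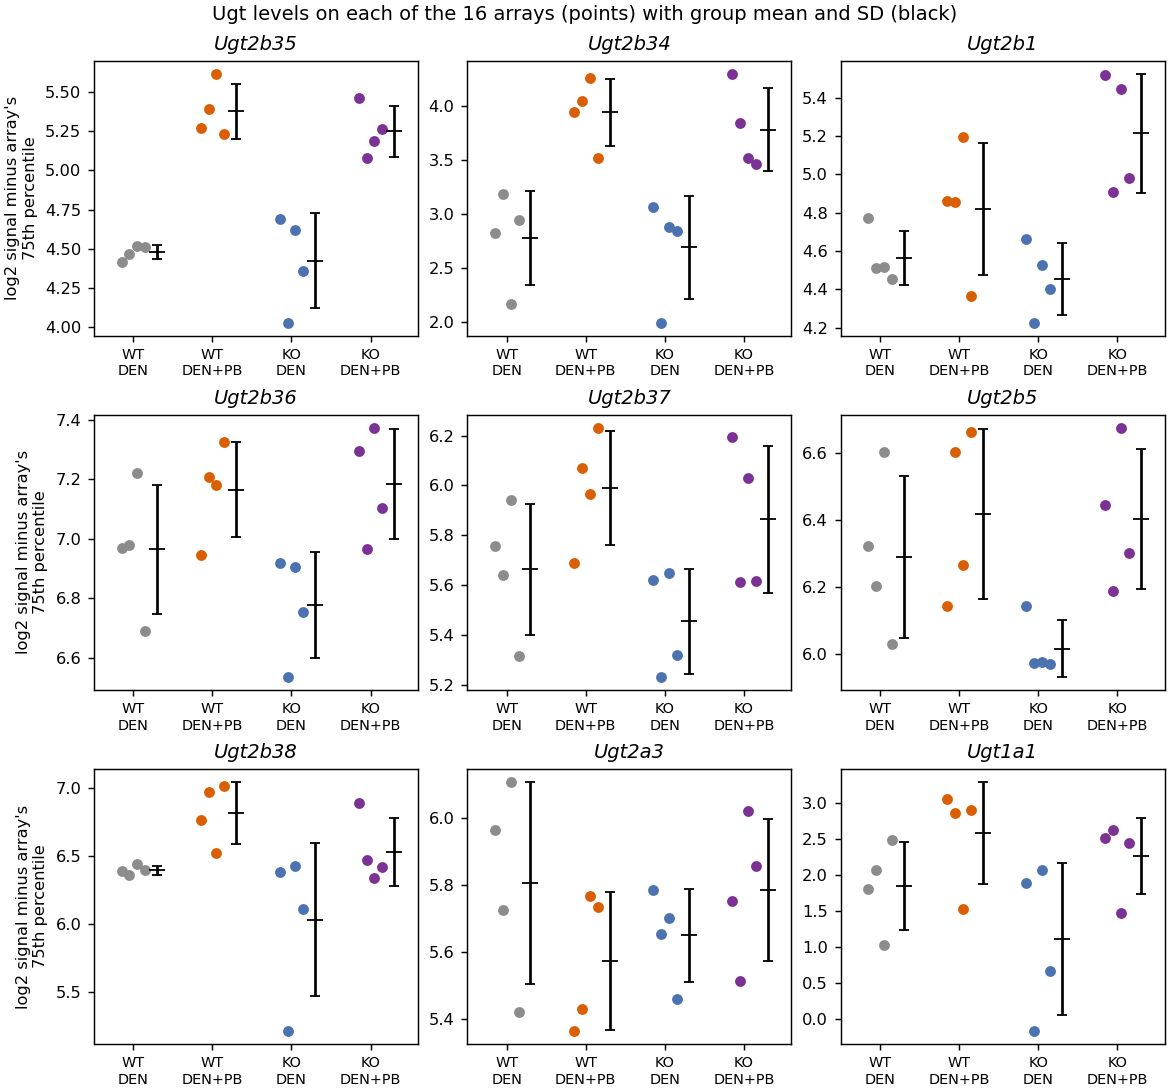
Level of each of the 9 measured Ugt genes (log2 processed signal minus the array's 75th percentile) on each of the 16 arrays, as coloured points by group, with the group mean and SD in black. The vertical axes differ between panels. For Ugt2b35 and Ugt2b34 all DEN + PB arrays lie above all DEN arrays of the same genotype, and KO DEN 2 is the lowest array in 7 of 9 panels.

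Ugt2b34, another gene of the cluster, gave the largest fitted change of the members in WT, but did not pass the adjusted threshold. Its levels were 2.82, 3.19, 2.17 and 2.95 in WT DEN and 3.94, 4.05, 4.26 and 3.52 in WT DEN + PB. Without PB the KO arrays gave 3.06, 1.99, 2.88 and 2.84, and with it 4.30, 3.84, 3.52 and 3.46. The groups did not overlap in either genotype. The change was 1.16 ± 0.27 in WT (2.24-fold, limma, adjusted p = 0.0678) and 1.09 ± 0.27 in KO (2.13-fold, limma, adjusted p = 0.0513), with an exact permutation p = 0.0286 in each. Within slides it was higher with PB on 3 of 3 slides in WT (0.46 to 1.77) and on 3 of 3 in KO (0.66 to 1.47). With slide as a block the changes were 1.19 in WT and 1.07 in KO, not called (limma, adjusted p = 0.128 and 0.0931). Without KO DEN 2 the WT change passed the threshold (1.16 ± 0.23, limma, adjusted p = 0.0279), which it did in no other setting, and the KO change was 0.85 (adjusted p = 0.13).

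Ugt2b1 was apart between the groups in KO and not in WT, was called in neither, and the difference between the genotypes did not pass the test. Its levels were 4.77, 4.51, 4.52 and 4.46 in WT DEN and 4.86, 4.86, 5.20 and 4.36 in WT DEN + PB, and these groups overlapped because the array WT DEN + PB 4 lay below all WT DEN arrays. The KO DEN levels were 4.66, 4.22, 4.53 and 4.40, and those with PB 5.52, 4.91, 5.44 and 4.98, with no overlap. The change was 0.26 ± 0.19 in WT (limma, adjusted p = 0.892) and 0.76 ± 0.19 in KO (1.69-fold, limma, adjusted p = 0.0524). The WT change was 0.13 without WT DEN + PB 3 and 0.41 without WT DEN + PB 4. Taken as WT minus KO, the PB effects differed by -0.51 ± 0.27 (95% CI -1.07 to 0.06, limma, adjusted p = 0.884). Within slides Ugt2b1 was higher with PB on 2 of 3 slides in WT (-0.12 to 0.34) and on 3 of 3 in KO (0.25 to 0.98).

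The 4 genes Ugt2b5, Ugt2b36, Ugt2b37 and Ugt2b38, whose promoter windows share runs of bases, had smaller fitted changes than Ugt2b35 and Ugt2b34, and none was called. In WT the changes were 0.13 ± 0.16 for Ugt2b5, 0.20 ± 0.15 for Ugt2b36, 0.33 ± 0.18 for Ugt2b37 and 0.42 ± 0.23 for Ugt2b38 (limma, adjusted p between 0.763 and 0.968). In KO they were 0.39 ± 0.16, 0.41 ± 0.15, 0.41 ± 0.18 and 0.50 ± 0.23 in the same order (limma, adjusted p between 0.248 and 0.383). Ugt2b38 had levels of 6.39, 6.36, 6.44 and 6.40 in WT DEN and 6.76, 6.97, 6.52 and 7.02 in WT DEN + PB, with no overlap. Its KO DEN levels were 6.38, 5.21, 6.42 and 6.11 and its KO DEN + PB levels 6.89, 6.47, 6.34 and 6.42, which overlapped. Its change in KO was 0.22 ± 0.17 without KO DEN 2 (limma, adjusted p = 0.69). Ugt2b5 and Ugt2b36 did not overlap between KO DEN and KO DEN + PB, and the KO DEN arrays of Ugt2b5 ran from 5.97 to 6.14 against 6.19 to 6.68 with PB. Within slides Ugt2b38 was higher with PB on 3 of 3 slides in both genotypes, Ugt2b5 and Ugt2b36 on 2 of 3 in WT and 3 of 3 in KO, and Ugt2b37 on 2 of 3 in each.

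Neither Ugt2a3 nor Ugt1a1 was called with PB. Ugt2a3 was the only member with a fitted change below 0 in WT, at -0.23 ± 0.17 (limma, adjusted p = 0.891), and its change in KO was 0.14 ± 0.17 (limma, adjusted p = 0.867). Its WT levels ran from 5.42 to 6.11 without PB and from 5.36 to 5.77 with it, its KO levels from 5.46 to 5.79 and from 5.51 to 6.02, and all groups overlapped. Ugt1a1, the bilirubin enzyme, had large fitted changes with a large spread, 0.74 ± 0.47 in WT (limma, adjusted p = 0.847) and 1.15 ± 0.47 in KO (limma, adjusted p = 0.31). On the WT arrays its levels were 1.80, 2.07, 1.03 and 2.49 without PB and 3.06, 2.86, 1.54 and 2.91 with it. On the KO arrays they were 1.89, -0.17, 2.07 and 0.67 without PB and 2.51, 2.63, 1.48 and 2.44 with it. The groups overlapped in both genotypes, through 1 low array in each PB group. Within slides Ugt1a1 was higher with PB on 3 of 3 in WT (0.63 to 2.03) and on 3 of 3 in KO (0.11 to 2.61). The low array WT DEN + PB 3 lay on a slide with no WT DEN array, so it entered none of the WT slide values. On the same slide KO DEN + PB 3 (1.48) lay between KO DEN 3 (2.07) and KO DEN 4 (0.67), which gave the lowest KO value of 0.11. Without KO DEN 2 the KO change was 0.72 ± 0.44, and the WT change was 0.47 without WT DEN 3 and 1.09 without WT DEN + PB 3.

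**Figure D2:**
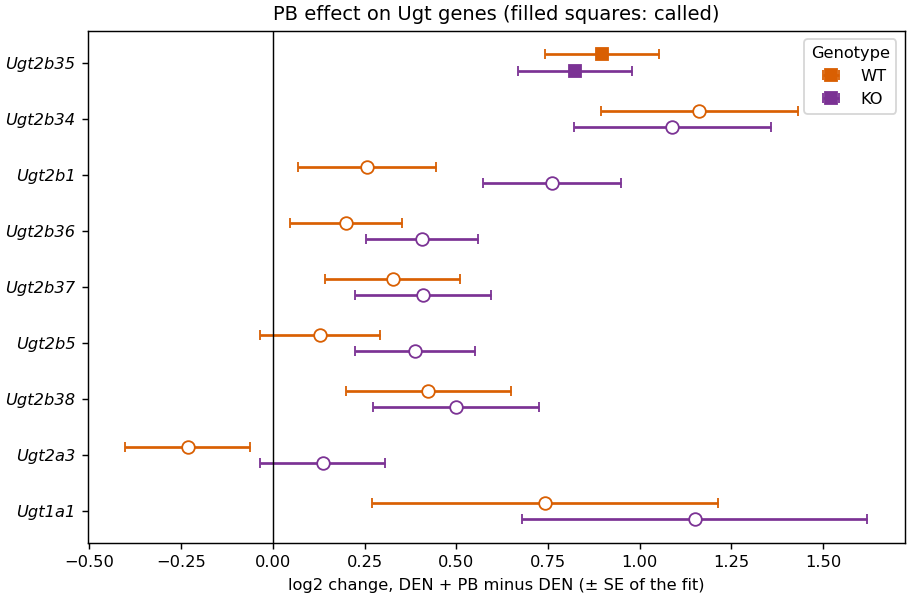
PB effect on each Ugt gene, as the log2 change of DEN + PB minus DEN (horizontal axis) with the SE of the fit as bars, in WT (orange) and KO (purple). Filled squares mark the called changes, which are those of Ugt2b35 at 0.90 in WT and 0.82 in KO, and open circles are not called.

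Over the 9 measured members, 8 had a fitted change above 0 in WT (median 0.33, range -0.23 to 1.16) and 9 in KO (median 0.50, range 0.14 to 1.15), where all 13311 genes had medians of -0.02 and 0.01, with 45.9% and 51.9% above 0. Only the change of Ugt2a3 in KO turned sign under another scaling, to -0.16 with the unscaled table. Counts were 1 of 9 called higher in WT, against 0.589% of all probes tested, and 1 of 9 in KO, against 1.05%. At an unadjusted p under 0.05, 2 of 9 were higher in WT (4.12% of all probes) and 8 of 9 in KO (5.83%), Ugt2a3 being the exception. The KO count was 3 of 9 without KO DEN 2 (Ugt2b1, Ugt2b34 and Ugt2b35, with 6.23% of all probes), 4 of 9 without KO DEN 4 or without KO DEN + PB 1, 5 of 9 without KO DEN + PB 3, 4 of 9 with slide as a block or with normexp, and 0 of 9 without scaling. The WT count was 4 of 9 without WT DEN + PB 3, 3 of 9 without WT DEN 3, WT DEN + PB 1, WT DEN + PB 4 or KO DEN 2, and 5 of 9 with quantile normalization. The DEN + PB arrays all lay above the DEN arrays for 3 of 9 members in WT (2.72% of all probes) and for 5 of 9 in KO (3.62%). The members share arrays and in part sequence, so they are not independent of each other. By the size of the rise among 13311 genes, Ugt2b34 ranked 131 in WT and 188 in KO, Ugt2b35 239 and 333, Ugt1a1 353 and 169, and Ugt2b1 1797 and 385. The difference of the PB effects between genotypes was called for 0 of 9 members (0.00818% of all probes), and 0 of 9 passed an unadjusted p under 0.05 (6.03%). For Ugt2b35 that difference was 0.07 ± 0.22 (95% CI -0.39 to 0.54) and for Ugt2b34 0.07 ± 0.38 (95% CI -0.73 to 0.88).

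Genotype alone gave no called member. KO DEN against WT DEN, 0 of 9 members were called (3.07% of all probes), 0 of 9 passed an unadjusted p under 0.05 (20.3%) and 0 of 9 did not overlap (11.9%). All 9 fitted changes were below 0, from -0.73 to -0.05 (median -0.19), but 5 of the 9 were above 0 with another background correction (normexp), and 2 of 9 were above 0 without KO DEN 2, where the median was -0.11. Ugt1a1 had the largest fitted change, -0.73 ± 0.47 (limma, adjusted p = 0.405), which was -0.30 without KO DEN 2. Ugt2b5 had the lowest p of the members, at -0.27 ± 0.16 (limma, adjusted p = 0.364). On the 2 slides that held both groups, Ugt1a1 (-1.97 and 0.86), Ugt2b34 (-0.83 and 0.89), Ugt2b1 and Ugt2b35 changed sign. The other members were lower in KO on both. In KO DEN + PB against WT DEN + PB, 0 of 9 were called (6.74% of all probes), 0 of 9 passed an unadjusted p under 0.05 (23%) and 0 of 9 did not overlap (16.1%). There 3 of 9 fitted changes were above 0, with Ugt2b1 highest at 0.39 ± 0.19 (limma, adjusted p = 0.224) and Ugt1a1 lowest at -0.32 ± 0.47. Within slides Ugt2b1 and Ugt2a3 were higher in KO DEN + PB on 4 of 4 slides (0.05 to 1.16 and 0.02 to 0.43), and Ugt1a1 and Ugt2b38 were lower on 4 of 4 (-0.43 to -0.05 and -0.55 to -0.13). These genes were picked from the 9 after their values were seen, and each slide held 2 arrays of this comparison. The other members were higher on some slides and lower on others, and no share over all probes was taken.

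Markers of other liver cells did move with genotype. Of 8 leukocyte and Kupffer cell genes, 3 were lower in KO under DEN and 6 under DEN + PB. Of all 13311 genes tested, 231 were called lower and 136 higher in KO under DEN. Under DEN + PB 778 were called lower and 234 higher, so lower calls in KO were the more frequent ones in general. With PB, 87 of the 13311 genes were called higher in WT and 167 in KO. The level of that list (log2 of its mean scaled signal on an array) ran from 1.44 to 2.31 in WT and 0.77 to 1.11 in KO under DEN alone, and from 1.62 to 1.85 in WT and 0.25 to 0.85 in KO with PB. In whole liver, fewer cells of a type and less RNA per cell cannot be told apart. Of 10 hepatocyte genes none was called between the genotypes under DEN and 1, Tat, was higher in KO under DEN + PB. The hepatocyte list ran from 7.25 to 7.61 in WT and 7.32 to 7.43 in KO under DEN alone, and from 7.17 to 7.47 in WT and 7.41 to 7.64 in KO with PB. With PB, 0 of 10 hepatocyte genes were called in WT and 1, Cyp3a11, was higher in KO. Of 5 bile duct genes tested, Krt19 and Krt7 were higher with PB in WT, and the list ran from 1.25 to 2.66 in WT DEN and 1.82 to 2.83 in WT DEN + PB. Krt19, Krt7 and Epcam were lower in KO under DEN + PB, as were Lrat of 6 stellate genes and Pecam1 and Clec4g of 6 endothelial genes, the last pair also under DEN. Of the sex-biased liver genes, 0 of 5 male-biased ones were called with PB, and Cyp2b9 and Cyp2b13 of 6 female-biased ones were higher in both genotypes, with Cyp2a4 in KO. Of 2 erythroid genes tested none was called. Of 4 pancreatic acinar genes tested, Pnliprp1 was called higher with PB in both genotypes and in KO DEN + PB against WT DEN + PB. It was well above background on 4 of 4 arrays of each PB group and 0 of 4 of each group without PB. Pnliprp1 thus entered the test only through the PB groups, so the direction of its PB calls was set by the filter. The size of its rise is against background signal. The part of these shifts in the Ugt values was not tested.

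The members fell into sets by how their levels moved over the 16 arrays, as a description without a test, since arrays share groups and probes share scaling. Ugt2b36 and Ugt2b37 were most alike (Pearson r = 0.95 over 16 arrays, 0.93 after each group's mean was taken off). Ugt2b5 went with them (r = 0.90 with Ugt2b36 and 0.87 with Ugt2b37), and these are 3 of the 4 genes with long shared runs in the promoter windows. In order of shared run, r was 0.75 for Ugt2b37 and Ugt2b38 (82 bases) and 0.87 for Ugt2b5 and Ugt2b37 (68 bases). It was 0.57 for Ugt2b5 and Ugt2b38 (62 bases) and 0.95 for Ugt2b36 and Ugt2b37 (24 bases). For Ugt2b5 and Ugt2b36 (24 bases) it was 0.90, and for Ugt2b36 and Ugt2b38 (22 bases) 0.72. Near-identical genes can also share a probe's signal, and with no probe sequence in the files that share cannot be told. Ugt2b35 and Ugt2b34 formed a second pair (r = 0.92, 0.67 within groups), and Ugt2b38 and Ugt1a1 another (r = 0.85, 0.74 within groups). Within groups Ugt2b35 was about as close to Ugt2b1 (r = 0.66) and Ugt2b38 (r = 0.66) as to Ugt2b34. Ugt2a3 had r = 0.76 with Ugt2b36, 0.70 with Ugt2b5 and 0.68 with Ugt2b37 within groups. Over 16 arrays these values were 0.48, 0.50 and 0.39, so the sets depend on whether group means are kept. The 36 pairs ran from r = -0.32 to 0.95 with a median of 0.57, and the median within groups was 0.36. Of 13297 tested genes outside the family, the gene most like each member was Gsta4 for Ugt2b35 (r = 0.96) and Gstm4 for Ugt2b34 (r = 0.92), both glutathione S-transferases. For the others it was Pusl1 for Ugt2b1 (r = 0.87), Cyp3a44 for Ugt2b36 (r = 0.90), Tmem248 for Ugt2b37 (r = 0.89), Lman1 for Ugt2b5 (r = 0.90), Fut8 for Ugt2b38 (r = 0.92), Sec14l4 for Ugt2a3 (r = 0.92) and Stt3a for Ugt1a1 (r = 0.92).

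**Figure D3:**
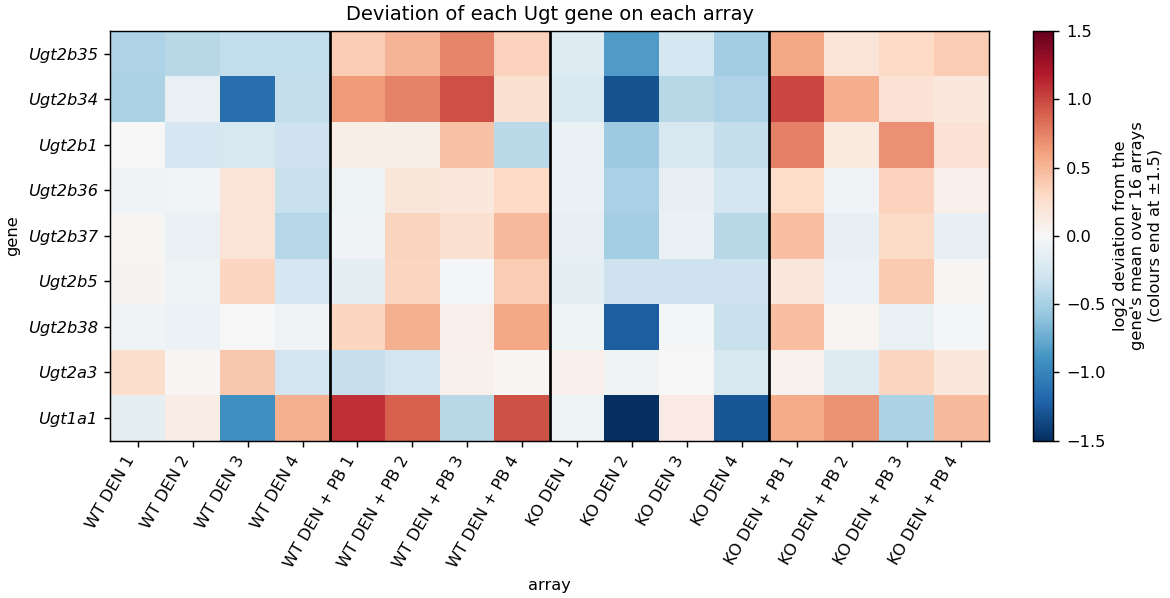
Deviation of each Ugt gene on each array from the gene's mean over the 16 arrays (log2, red above and blue below, colours ending at ±1.5), with arrays in columns by group and genes in rows. Ugt2b35 and Ugt2b34 are red on every DEN + PB array and blue on every DEN array, and KO DEN 2 is blue in all rows.

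Averaged over the 9 members, the deviation from each gene's mean was below 0 on all 8 DEN arrays (-0.82 to -0.10) and above 0 on all 8 DEN + PB arrays (0.12 to 0.48). Ugt2b35 and Ugt2b34, the members with the clearest PB response, enter this unweighted mean. It therefore does not show that the other members were apart on every array. No mean without them, and none over other genes, was taken. KO DEN 2 had the lowest mean deviation, -0.82, and was the lowest array for 7 of 9 members, and KO DEN 4 came next at -0.47. The spread within groups was not alike for all members. It was 0.755 (SD of the log2 level after each group's mean was taken off) for Ugt1a1, above 96.4% of all probes, against 0.193 for Ugt2b35 and a median of 0.299 over all probes. A leading component of the within-group spread over 24410 probes held 24.5% of its variance. It was lowest in WT DEN 3, WT DEN + PB 3, KO DEN 2 and KO DEN + PB 3 within their groups. Ugt1a1 followed this component with r = 0.74 and Ugt2b34 with r = 0.59, Ugt2a3 with r = -0.81 and Ugt2b5 with r = -0.66, while Ugt2b35 (r = 0.11) and Ugt2b1 (r = -0.06) hardly did. Of all probes, 20% had an r beyond 0.7 in either direction, and what lies behind the component was not tested. With these 4 arrays left out, a setting chosen after the data were seen, Ugt2b35 was still called in WT (0.83 ± 0.15, limma, adjusted p = 0.0275) and in KO (0.71 ± 0.15, limma, adjusted p = 0.0475), and Ugt1a1 had changes of 0.82 ± 0.31 in WT and 0.98 ± 0.31 in KO, which were not called (limma, adjusted p = 0.448 and 0.2).

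Of the other Ugt genes, Ugt1a6b is a close relative of Ugt1a6a, the member with no probe of its own accession, and 2 probes carried its accession. The brighter probe ran from 7.48 to 8.06 without PB and 7.66 to 8.16 with it in WT, and from 7.57 to 7.97 and 7.73 to 8.37 in KO, with overlap in both and a change of 0.12 ± 0.17 in WT and 0.30 ± 0.17 in KO (limma, adjusted p = 0.976 and 0.536). The dimmer probe had changes of 0.35 ± 0.53 in WT and 0.48 ± 0.53 in KO (limma, adjusted p = 0.98 and 0.836), and its level followed Ugt1a1 within groups with r = 0.94, where the brighter probe had r = -0.62. The second probe of Ugt3a2, a gene of another Ugt family, also followed Ugt1a1 (r = 0.89). No level is given for Ugt1a6a, as neither probe was assigned to it.

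**Figure D4:**
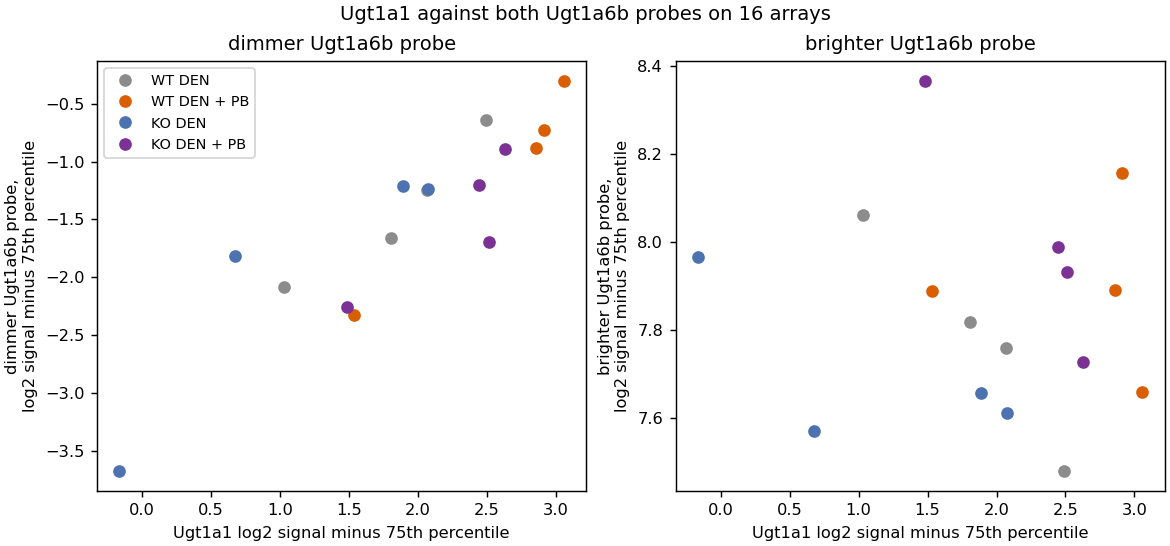
Level of Ugt1a1 (horizontal axes) against the dimmer (left) and the brighter (right) probe of Ugt1a6b (vertical axes) on the 16 arrays, coloured by group, all as log2 processed signal minus the array's 75th percentile. The dimmer probe falls with Ugt1a1 down to KO DEN 2 at the lower left (-0.17 and -3.67), and the brighter probe does not.

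Ugt1a9 had the widest fitted change of any Ugt probe and is described because its values were large, so it was chosen after they were seen. Its levels were -1.06, -1.18, -2.43 and -0.76 in WT DEN and 1.37, 0.98, 0.63 and 1.77 in WT DEN + PB, without overlap. The KO levels were -0.38, -0.36, 2.04 and 2.51 without PB, and with it 2.41, 0.53, -0.69 and 0.46. The WT groups were apart and the KO groups spread over most of the range. The change with PB was 2.55 ± 0.68 in WT (limma, adjusted p = 0.143, exact permutation p = 0.0286) and -0.27 ± 0.68 in KO (limma, adjusted p = 0.951), and their difference was 2.82 ± 0.96 (limma, adjusted p = 0.541). In a fit of the WT arrays alone the change passed the threshold (2.55 ± 0.36, limma, adjusted p = 0.00984). KO DEN lay 2.31 ± 0.68 above WT DEN (limma, adjusted p = 0.0719) with no overlap, and passed the threshold without KO DEN 1 (2.75, adjusted p = 0.0488) or without KO DEN + PB 1 (2.31, adjusted p = 0.0486). Within slides the PB difference in WT was 2.04, 2.74 and 3.80, and in KO 0.82, 0.91 and -2.96. None of the other tested Ugt probes was called in any comparison.

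Genes around glucuronidation were followed by lists. For comparison with the list counts here and below, 87 of 13311 genes were called higher with PB in WT and 167 in KO. Of 7 genes that supply UDP-glucuronic acid, all tested, none was called with PB in either genotype. Ugdh, which oxidises UDP-glucose to UDP-glucuronic acid, had changes of 0.67 ± 0.19 in WT (limma, adjusted p = 0.177) and 0.60 ± 0.19 in KO (limma, adjusted p = 0.135), with no overlap of groups (exact permutation p = 0.0286 in each). Ugp2, which makes UDP-glucose, had a change of 0.71 ± 0.19 in KO (limma, adjusted p = 0.0675) and 0.22 ± 0.19 in WT. Slc35d1, a carrier of UDP-glucuronic acid into the endoplasmic reticulum, was higher in KO than in WT under DEN (1.30 ± 0.29, limma, adjusted p = 0.0242) and under DEN + PB (1.14 ± 0.29, limma, adjusted p = 0.0244). These calls were lost in 9 and 8 of 29 settings (adjusted p up to 0.0881 and 0.182). Single arrays that ended them were WT DEN 3, KO DEN 2 and KO DEN 4 under DEN (1.06 to 1.31 without them), and WT DEN + PB 3, WT DEN + PB 4, KO DEN + PB 2 and KO DEN + PB 4 with PB (0.92 to 1.15). Its level ran from 1.07 to 2.12 in WT and 2.74 to 3.80 in KO under DEN alone, and from 1.33 to 2.41 in WT and 2.94 to 3.45 in KO with PB. Pgm2, of the phosphoglucomutase family, was lower in KO under DEN + PB (-1.01 ± 0.19, limma, adjusted p = 0.00388), a call lost with normexp (-0.64, adjusted p = 0.28).

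The export pump Abcc4 rose with PB in both genotypes under all 29 alternative settings, and Abcc3 was called in both but not stably in WT. Of 10 genes tested for the handling of glucuronides and of ascorbate, 2 were called higher in WT and 3 in KO. Abcc4, an export pump of the blood side, rose by 3.49 ± 0.26 in WT (limma, adjusted p = 2.04e-06) and by 2.51 ± 0.26 in KO (limma, adjusted p = 4.61e-05). Abcc3, another pump of the blood side, rose by 1.01 ± 0.14 in KO (limma, adjusted p = 0.000709) and by 0.63 ± 0.14 in WT (limma, adjusted p = 0.0459), where the call was lost in 24 of 29 alternative settings, 15 of them leaving out a single array. Slco1a4, an uptake carrier, rose by 1.19 ± 0.25 in KO (limma, adjusted p = 0.0209), a call lost in 9 of 29 settings (adjusted p up to 0.314), and had a change of 0.10 ± 0.25 in WT. Of those 9 settings, 5 left out a single array (KO DEN 1, KO DEN 2, KO DEN 4, KO DEN + PB 2 or KO DEN + PB 4), with changes of 1.12 to 1.19. Abcc2, the pump of the bile side, had changes of 0.51 ± 0.12 in WT and 0.43 ± 0.12 in KO that were not called (limma, adjusted p = 0.0858 and 0.105). Gusb, the enzyme that removes glucuronic acid again, had changes of 0.07 ± 0.14 and -0.05 ± 0.14. Under DEN + PB, Abcc4 was lower (-0.90 ± 0.26, limma, adjusted p = 0.0481) and Slco1a4 higher (1.19 ± 0.25, limma, adjusted p = 0.0089) in KO than in WT. The Abcc4 call was lost in 21 of 29 alternative settings (adjusted p up to 0.5), 13 of them leaving out a single array, and that of Slco1a4 in 2 of 29. For this pair and the other genes of the list, 10 in all, no difference of the PB effects was called.

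Of 13 regulators of Ugt genes tested, none was called with PB. Nr1i3, which encodes CAR, had changes of -0.26 ± 0.16 in WT and 0.24 ± 0.16 in KO, and Ahr 0.76 ± 0.21 and 0.80 ± 0.21 (limma, adjusted p = 0.164 and 0.0645). Ppara was higher in KO than in WT under DEN + PB (0.73 ± 0.18, limma, adjusted p = 0.0204), a call lost in 8 of 29 settings (adjusted p up to 0.387), among them without WT DEN + PB 3 (0.59), KO DEN + PB 2 (0.69) or KO DEN + PB 4 (0.69). Of 6 CAR target genes, 5 rose in each genotype, among them Cyp2b10 by 6.69 ± 0.62 in WT and 6.80 ± 0.62 in KO (limma, adjusted p = 1.42e-05 and 1.09e-05), and Por, the electron donor of the P450 enzymes, by 0.89 ± 0.19 and 1.09 ± 0.19 (limma, adjusted p = 0.0335 and 0.00488). Cyp2c55 rose by 4.40 ± 0.24 and 4.16 ± 0.24 (limma, adjusted p = 9.65e-08 and 1.15e-07), Cyp2c29 by 0.67 ± 0.14 and 0.93 ± 0.14 (limma, adjusted p = 0.0278 and 0.0014), and Sult1e1, the estrogen sulfotransferase, by 2.45 ± 0.42 and 5.27 ± 0.42 (limma, adjusted p = 0.00672 and 2.08e-06). Sult1e1 was also higher in KO than in WT under DEN + PB, by 3.28 ± 0.42 (limma, adjusted p = 0.000283, called in 29 of 29 settings). In WT the call was lost in 15 of 29 settings for Por and 13 of 29 for Cyp2c29, slide as a block among them (adjusted p = 0.106 for each), and 6 and 5 of these left out a single WT array (0.71 to 0.94 for Por and 0.61 to 0.68 for Cyp2c29). Nqo1, a target of NRF2, rose by 1.13 ± 0.22 in WT and 1.14 ± 0.22 in KO (limma, adjusted p = 0.0233 and 0.0134), of 5 NRF2 targets with 2 called in WT and 1 in KO, the other in WT being Srxn1 (0.86 ± 0.17, limma, adjusted p = 0.025). The WT calls of Nqo1 and Srxn1 were lost in 12 and 11 of 29 settings, 4 of which left out a single WT array for each (0.96 to 1.07 and 0.71 to 0.85), and the KO call of Nqo1 in 3, without KO DEN 4 (1.02) among them. Of 4 AHR targets, Cyp1a2 was called in KO (1.03 ± 0.24, limma, adjusted p = 0.0369, lost in 15 of 29 settings, 7 of them leaving out a single KO array, with changes of 0.92 to 1.05) and none in WT. Cyp1b1, another of them, was lower in KO than in WT under DEN + PB (-1.15 ± 0.22, limma, adjusted p = 0.00514), a call lost with normexp. None of 4 targets of PPAR-alpha was called with PB.

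**Figure D5:**
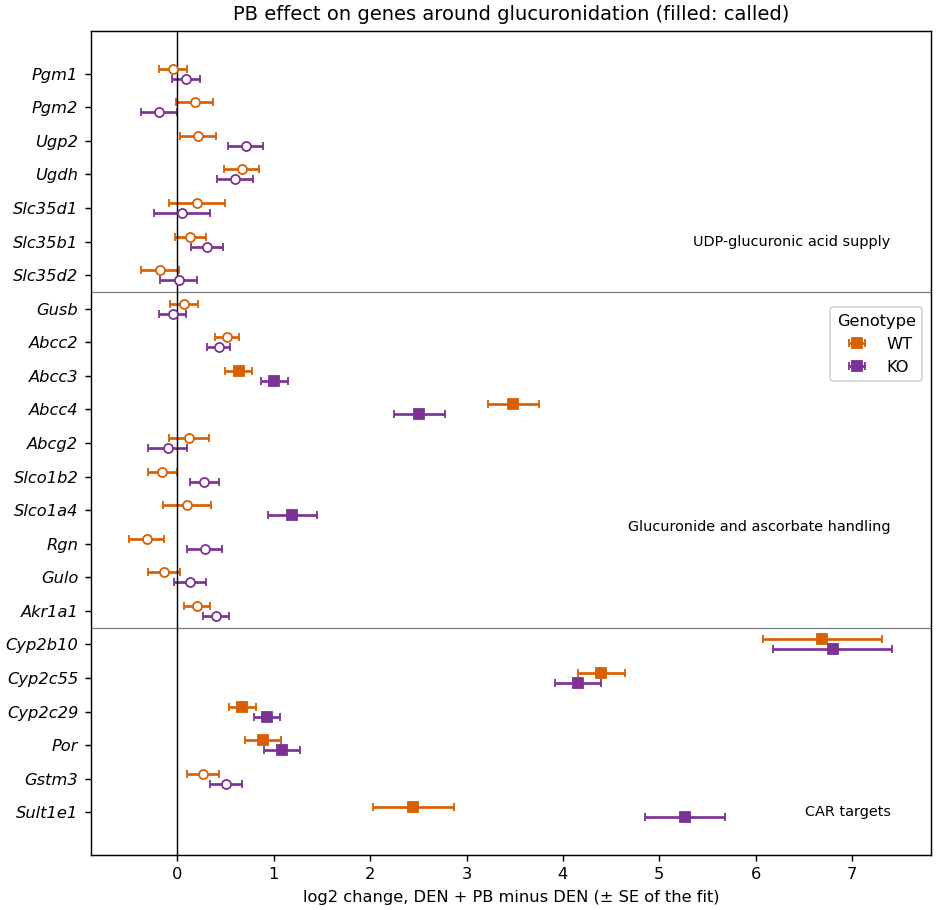
PB effect on genes around glucuronidation, as the log2 change of DEN + PB minus DEN (horizontal axis) with the SE of the fit as bars, in WT (orange) and KO (purple), in 3 lists separated by lines. Filled squares are called changes. Abcc4 at 3.49 and 2.51 and Cyp2b10 at 6.69 and 6.80 lie far to the right of the genes that supply UDP-glucuronic acid, none of which is called.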

How the data were processed

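RNA of 16 livers, 1 per mouse, was hybridised to 16 Agilent mouse arrays with 1 dye. The authors deposited scanner files of Agilent Feature Extraction 12.0.3.1, whose processed signal is a background-subtracted intensity on a linear scale with no scaling between arrays, and 1 series table of intensity values, which equalled the mean processed signal of each probe to within 5e-04 percent. The normalization behind the study's own test was not given in the sources used here. All columns belonged to the 4 groups.

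Spots marked as outliers were left out (71 to 122 per array), repeated spots were averaged per probe, and each array's 75th percentile was subtracted on the log2 scale. Saturation was found in 0 spots. Probes entered the test if some group had them well above background on each of its 4 arrays. Accessions were named through the RefSeq table of GRCm38.p6 (28244 probes, of which 28223 by accession), and the brightest tested probe stands for a gene. The array was designed on another build, so no array coordinates are given. Models with 4 group means over 16 arrays were fitted with limma 3.58.1 in R 4.3.3, with Benjamini-Hochberg adjustment over 24455 probes, a threshold of 0.05 and 1.5-fold. Exact permutation tests were two-sided. The fit was tested on simulated arrays with noise independent between probes and changes larger than those fitted for the members. That test did not cover the spread shared by probes within groups. Normexp (offset 50) used the median signal, since the scanner files used here held no mean signal. The replicate numbers of the labels were not treated as pairs in the main fit. Deviations of arrays with the same number correlated between -0.21 and 0.33, with 5 of 16 values above 0.1. Arrays with different numbers were not compared in this way, so the range cannot settle whether the numbers pair the samples.

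Every member was to be named, with other Ugt and list genes counted and named where called, and the gene most like each member. List genes with values but no call, and Ugt1a9, were named after their values were seen. The members and lists were chosen with earlier results of these data known. Lists of stellate, endothelial, pancreatic acinar, erythroid, male-biased and female-biased liver genes were also counted. Promoters and motifs were taken from RefSeq tables (GRCm38.p6), which held all 10 members.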

Additional observations from a re-analysis of the deposited data

Results flagged for a closer look

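Within groups of 4 arrays, 3 levels stood apart from the other 3 of their group by Dixon's ratio, of 36 groups of 4 tested over the 9 members, and chance flags about 1 in 20 groups. Ugt1a1 was at 1.54 on the array WT DEN + PB 3, where the next lowest array of the group was at 2.86, and at 1.48 on KO DEN + PB 3, where the next lowest was at 2.44. Both arrays were also the lowest of their groups on the leading component of the spread within groups. Ugt2b5 was at 6.14 on KO DEN 1, where the next highest was at 5.98. The log2 PB effect of no member differed between the genotypes by the test of the difference, and none moved up on all arrays of 1 genotype and down on all of the other.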

How the results depend on the processing

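Ugt2b35 was called with PB in WT under all alternatives but 2, which gave 0 called members in each genotype. With normexp background correction its changes were 0.84 ± 0.27 in WT and 0.81 ± 0.27 in KO (limma, adjusted p = 1 and 0.606), and without scaling of the series table they were 1.00 ± 0.32 and 0.53 ± 0.32 (limma, adjusted p = 0.434 and 0.467). In KO the count of called members was also 0 in a fit of the KO arrays alone (Ugt2b35, adjusted p = 0.0738), 3 with only probes above background on all 16 arrays (Ugt2b1 and Ugt2b34 added) and 2 with the replicate block (Ugt2b1 added, limma, adjusted p = 0.0288). The replicate block changed no other call of a member. Leaving out 1 array at a time gave 1 to 2 called members in WT (2 without KO DEN 2, which added Ugt2b34) and 1 to 3 in KO (2 without WT DEN 3 or without WT DEN + PB 3, and 3 without WT DEN + PB 4), through Ugt2b34 and Ugt2b1, where WT arrays act through the pooled spread. The difference of the PB effects and both genotype comparisons gave 0 called members in every setting run. Signs turned for the KO effect of Ugt2a3 with the unscaled table (-0.16), and for the difference of the PB effects of Ugt2b35 with scaling to the median (-0.00021) and of Ugt2b34 without the lowest-scoring arrays (-0.088). Leaving out 1 array at a time, that difference ran from -0.016 to 0.21 for Ugt2b35 and from -0.13 to 0.31 for Ugt2b34, and the KO effect of Ugt1a9 from -0.85 to 0.25. The cause of these changes was not tested. Over all 9 members, those just named included, 16 of 108 values of the difference, 8 of 117 of KO against WT under DEN and 8 of 117 under DEN + PB turned sign in the settings other than leaving out a single array. The unscaled table moved the median change of all probes to -0.29 in KO (0.00 in the main setting) and to 0.09 in WT (-0.02), and the share of called probes that were higher in KO to 42.3% from 61.2%, which was 87.5% with normexp. The mean of a gene's probes could not be tried, as each member had 1 probe.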
